A study of Arabidopsis thaliana with 12 samples.

Results

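Transcripts of 10 drought and cold protective genes were examined in whole seedlings of Arabidopsis thaliana by RNA sequencing. The genes were RD20 (AT2G33380), P5CS1 (AT2G39800), RD29A (AT5G52310), RD29B (AT5G52300), RAB18 (AT5G66400), COR15A (AT2G42540), COR15B (AT2G42530), KIN1 (AT5G15960), COR47 (AT1G20440) and ERD10 (AT1G20450). They were taken by these identifiers from the 27436 genes listed in the deposited tables. The rule for membership uses gene names and no measured value, but it was written with earlier results of these data known. All 10 passed the filter on low counts. The groups were the triple mutant pnet2_abc, the double mutants pnet2_bc and pnet2_ac, and wild type of ecotype Col-0 (WT), with 3 libraries each and 12 in all. PNET2A, PNET2B and PNET2C are nuclear membrane proteins of plants. The mutant letters name the affected genes, so every mutant line carries the c mutation, and no label names the alleles. All seedlings were 7 days old, untreated and grown on Murashige and Skoog medium with sucrose. Whether the 3 libraries of a group were grown separately is not stated in the labels. The p-values therefore measure the spread between these libraries, which may be technical. The questions were how the 10 genes stood in the triple mutant relative to each double mutant, and in each mutant relative to WT.

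Plants that lose water or meet low temperature switch on a set of genes whose products protect membranes and proteins. Many of these genes respond to the hormone abscisic acid (ABA): with ABA bound, receptors block PP2C phosphatases, SnRK2 kinases become active, and ABF transcription factors bind a promoter element called ABRE. A separate route runs in the cold through ICE1 to the CBF transcription factors and in drought through DREB2 factors, which bind an element called DRE or CRT. COR47, ERD10 and RAB18 encode dehydrins, hydrophilic proteins that keep cell structures from damage during water loss. COR15A and COR15B encode chloroplast proteins that protect membranes in freezing, KIN1 encodes a small cold-induced hydrophilic protein, and RD29A and RD29B are widely used reporters of the CBF/DREB and ABA routes. RD20 encodes a caleosin, a calcium-binding protein of lipid bodies, and P5CS1 encodes the enzyme of the rate-limiting step in the synthesis of proline, a compatible solute.

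Promoters are shown for 6 of the genes, which cover each content of the elements found and include genes called higher, called lower and not called in pnet2_abc against WT. Each line gives the 250 bases before the annotated gene start, read in the direction of the gene, from the RefSeq genome and annotation of build TAIR10.1. Capitals mark the ABRE core ACGTG and the DRE/CRT core CCGAC on either strand, so a core on the opposite strand reads CACGT or GTCGG.
RD29A, chr5:21240467-21240716, plus strand: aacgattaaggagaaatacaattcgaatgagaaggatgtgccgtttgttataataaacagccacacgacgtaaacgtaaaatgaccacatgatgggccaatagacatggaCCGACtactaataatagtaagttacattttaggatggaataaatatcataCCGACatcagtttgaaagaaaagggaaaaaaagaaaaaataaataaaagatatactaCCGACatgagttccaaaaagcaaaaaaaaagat
RD29B, chr5:21236771-21237020, plus strand: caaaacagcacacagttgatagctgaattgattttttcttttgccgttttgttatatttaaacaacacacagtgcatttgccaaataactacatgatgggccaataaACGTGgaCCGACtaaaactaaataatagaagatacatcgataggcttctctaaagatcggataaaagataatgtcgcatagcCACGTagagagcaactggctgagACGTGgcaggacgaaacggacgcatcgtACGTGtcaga
RD20, chr2:14146556-14146805, minus strand: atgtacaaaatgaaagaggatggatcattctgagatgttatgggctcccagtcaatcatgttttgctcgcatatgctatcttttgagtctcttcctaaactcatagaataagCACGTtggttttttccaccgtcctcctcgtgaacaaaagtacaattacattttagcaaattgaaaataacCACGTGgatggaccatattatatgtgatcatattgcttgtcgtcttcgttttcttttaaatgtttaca
RAB18, chr5:26519448-26519697, minus strand: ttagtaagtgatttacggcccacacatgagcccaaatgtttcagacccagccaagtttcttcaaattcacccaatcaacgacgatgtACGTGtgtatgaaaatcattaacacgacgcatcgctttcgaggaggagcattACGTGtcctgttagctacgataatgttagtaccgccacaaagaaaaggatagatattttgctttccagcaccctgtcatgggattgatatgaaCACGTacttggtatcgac
COR15A, chr2:17712331-17712580, minus strand: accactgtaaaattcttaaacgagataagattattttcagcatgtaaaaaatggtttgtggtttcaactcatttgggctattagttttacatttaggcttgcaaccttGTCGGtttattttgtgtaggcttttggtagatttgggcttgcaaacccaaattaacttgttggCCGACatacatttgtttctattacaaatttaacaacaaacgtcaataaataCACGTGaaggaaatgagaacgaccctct
ERD10, chr1:7089607-7089856, minus strand: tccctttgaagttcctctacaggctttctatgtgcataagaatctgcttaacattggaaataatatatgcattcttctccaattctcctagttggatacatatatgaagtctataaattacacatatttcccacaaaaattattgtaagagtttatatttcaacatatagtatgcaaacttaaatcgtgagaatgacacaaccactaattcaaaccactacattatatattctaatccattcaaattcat

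The cores were counted in windows of 250 bases before and 50 bases after the start. The ABRE core was in the windows of 5 of the 10 genes, and in 26.7% of 27443 promoters of the genome. The DRE/CRT core was in 3 of the 10, and in 15.05% of the promoters. RD29A held 4 DRE/CRT cores and no ABRE core, with 1 of the 4 after the start. Its tandem neighbour RD29B held 4 ABRE cores and 1 DRE/CRT core. RD20 held 5 ABRE matches, RAB18 held 3 and KIN1 held 1. In RD20 the palindrome CACGTG was matched on both strands at each of its places, and it lay once before and once after the start. COR15A held 2 matches of each core, its ABRE matches being 1 such palindrome, and COR15A and RD29B were the 2 genes with both, against 4.71% of all promoters. No core was in the windows of P5CS1, COR15B, COR47 or ERD10, which says only that these letters are not in these windows. The window of RAB18 reaches into the neighbouring gene AT5G66410, and that of COR15B into COR15A. A match describes the sequence and does not show that a factor binds there.

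**Figure D1:**
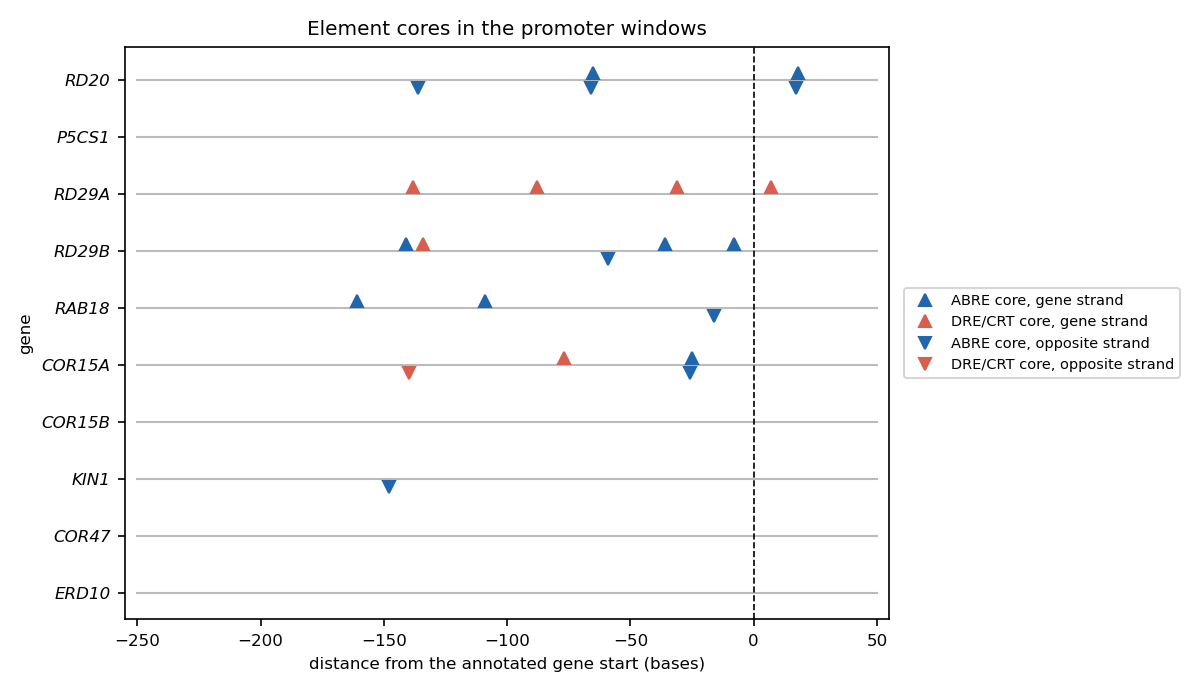
Positions of the ABRE core (blue) and the DRE/CRT core (red) in the promoter windows of the 10 genes, with distance from the annotated gene start in bases on the x axis; triangles pointing up are on the strand of the gene and triangles pointing down on the opposite strand. RD29A holds 4 DRE/CRT cores, RD29B 4 ABRE cores and 1 DRE/CRT core, and COR47, ERD10, COR15B and P5CS1 hold none.

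Counts per library summed to between 65758625 and 115881203, and 23330 genes were tested. Levels are given as CPM, counts per 1000000 after scaling by TMM (trimmed mean of M-values) factors, and a count of 3 in a library corresponded to 0.0262 to 0.0436 CPM. A gene was called where edgeR's quasi-likelihood test gave an adjusted p under 0.05 over all tested genes. For counts given at an unadjusted p under 0.05, the share of all tested genes was not counted. The reference annotates 3 genes with the domain DUF2215, taken here as the targeted family, and it does not say which is A, B or C. AT3G49840 stood at 2.09 to 2.31 CPM in pnet2_abc, 5.48 to 8.33 CPM in pnet2_bc, 6.36 to 7.31 CPM in pnet2_ac and 8.03 to 10.8 CPM in WT. AT5G67610 stood at 10.6 to 12.01 CPM in pnet2_abc, 14.3 to 15.4 CPM in pnet2_bc, 20.9 to 24.1 CPM in pnet2_ac and 18.9 to 23.6 CPM in WT. AT1G28760 was high in pnet2_abc alone, at 42.4 to 54.1 CPM, with 3.81 to 4.8 CPM in pnet2_bc, 4.78 to 5.82 CPM in pnet2_ac and 3.65 to 4.48 CPM in WT. Reads of a mutated copy can still be counted for its gene, so these levels do not test the labels. In the triple mutant 64.5% of tested genes were called against WT, and all 5 markers of photosynthetic shoot tissue fell, with a summed level of 11948 to 12935 CPM in pnet2_abc, 42471 to 47140 CPM in pnet2_bc, 42472 to 46225 CPM in pnet2_ac and 46024 to 51158 CPM in WT. None of the 5 was at 0 in any genotype, and their part in the results for the triple mutant was not tested. The 12 root markers summed to 2081 to 2158 CPM in pnet2_abc and 2190 to 2436 CPM in WT, with 2 of the 12 called lower and 0 higher. DESeq2 called 2 lower and 3 higher, and 2 were higher by edgeR at an unadjusted p under 0.05. Most of that sum was PYK10, at 2087 ± 45.6 CPM in pnet2_abc and 2254 ± 106 CPM in WT (SD, n = 3 each). Because RNA came from whole seedlings, fewer cells of a type and less RNA per cell cannot be told apart.

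**Figure D2:**
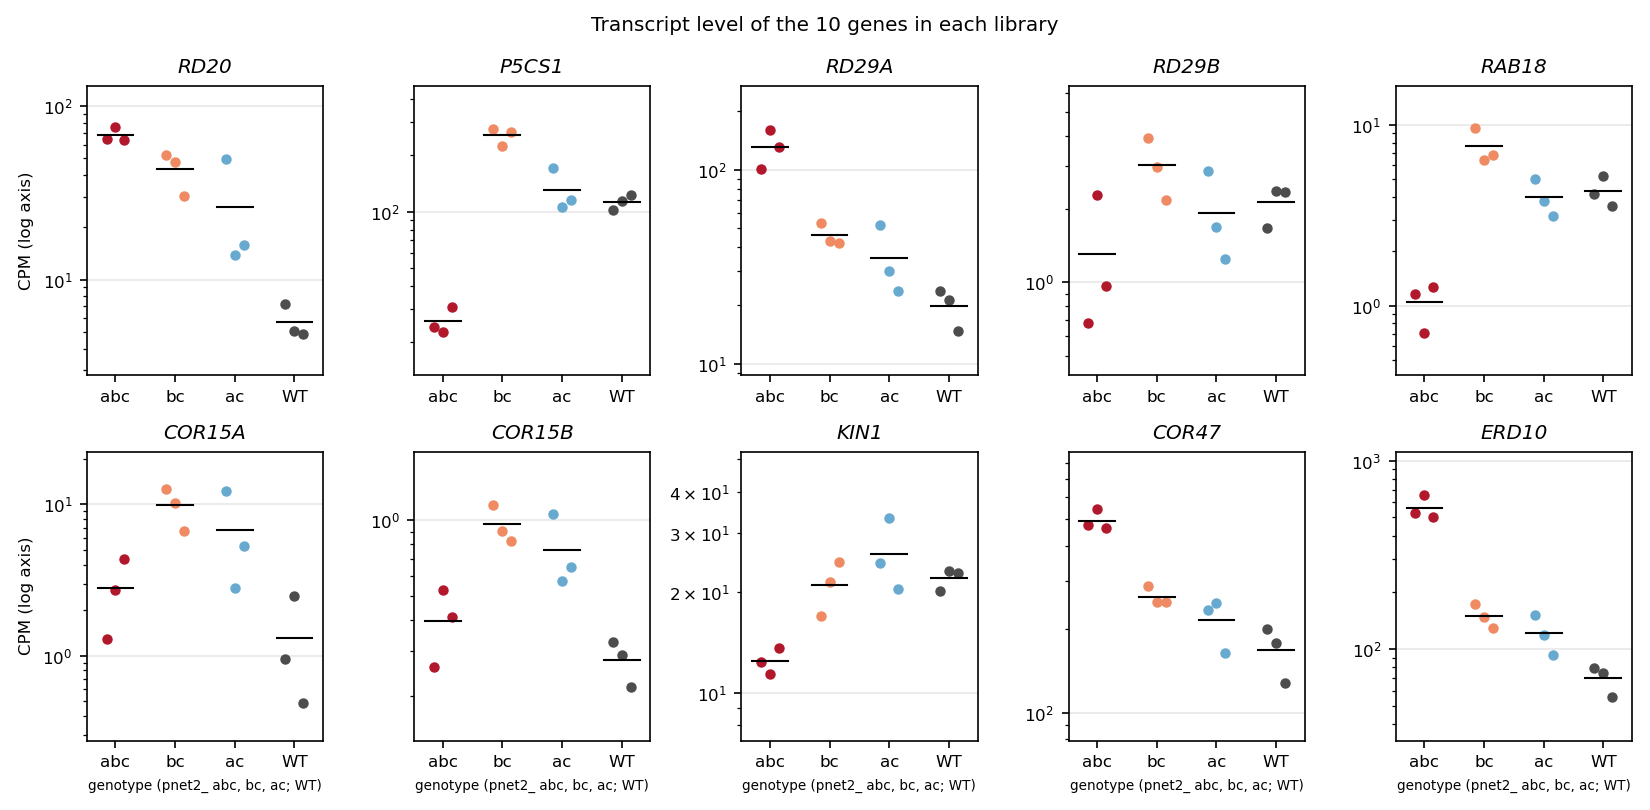
Level of each of the 10 genes in CPM (log axis, a separate scale for each panel) in each library of pnet2_abc, pnet2_bc, pnet2_ac and WT, left to right; points are libraries and bars are means of 3. ERD10, COR47 and RD29A are highest in pnet2_abc, P5CS1, RAB18 and KIN1 are lowest in it, and the COR15 pair is highest in pnet2_bc.

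On the TPM scale, which corrects for transcript length and so allows genes to be ranked, the dehydrin genes COR47 and ERD10 led in every genotype. In pnet2_abc ERD10 averaged 581 ± 73.5 TPM (SD, n = 3), rank 216 of 27436 genes, followed by COR47 at 355 ± 24.4 TPM, RD20 at 108 ± 8.68 TPM and RD29A at 81.5 ± 16.6 TPM. In pnet2_bc COR47 was first at 167 ± 11.1 TPM, and ERD10 at 137 ± 19.4 TPM and P5CS1 at 131 ± 12.1 TPM lay within one SD of each other. In pnet2_ac COR47 at 139 ± 30.8 TPM and ERD10 at 112 ± 27.9 TPM also overlapped within their SDs. In WT COR47 averaged 105 ± 25.3 TPM, ERD10 62.5 ± 12.7 TPM and P5CS1 56.0 ± 3.86 TPM, the last pair again within one SD. RAB18, RD29B, COR15A and COR15B stood at the low end, with means of 0.253 to 10.5 TPM over the 4 genotypes. P5CS1 came directly after COR47 and ERD10 in pnet2_bc, pnet2_ac and WT, and after 5 of the other genes in pnet2_abc. Summed over the 10 genes, the level was 1172 ± 113 TPM in pnet2_abc, 583 ± 49.0 TPM in pnet2_bc, 438 ± 109 TPM in pnet2_ac and 289 ± 39.3 TPM in WT. COR47 and ERD10 together made 79.8% of that sum in pnet2_abc, 52.2% in pnet2_bc, 57.7% in pnet2_ac and 57.4% in WT.

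The triple mutant was first set against the double mutants. Of the 10 genes, 3 were higher and 6 lower in pnet2_abc than in pnet2_bc, and RD20 was not called. In that comparison 31.8% of the tested genes passed the threshold as higher and 32.3% as lower. Against pnet2_ac, 4 were higher and 3 lower, where the shares among the tested genes were 30.7% and 32.2%. The libraries of pnet2_abc lay wholly above those of pnet2_bc for 4 of the 10 genes and wholly below for 5, against 35.8% and 35.2% of all tested genes. For pnet2_ac the counts were 4 above and 4 below, against 35% and 35%. RD29A, COR47 and ERD10 were higher in pnet2_abc than in each double mutant, and P5CS1, RAB18 and KIN1 were lower than in each. The median log2 fold change of the 10 was -0.98 against pnet2_bc and -0.75 against pnet2_ac, and that of all tested genes was 0.00 and -0.01. Both comparisons use the same 3 pnet2_abc libraries.

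The 3 dehydrin genes did not move together. ERD10 had 529.7, 657 and 503 CPM in pnet2_abc, 173, 148 and 129 CPM in pnet2_bc, 151, 118 and 93.2 CPM in pnet2_ac, against 79.2, 75.1 and 55.5 CPM in WT. Its pnet2_abc libraries were all above every other library, and the double mutant libraries were all above WT. ERD10 was 3.75-fold higher in pnet2_abc than in pnet2_bc (log2 fold change 1.91 ± 0.18, adjusted p = 8.6e-07) and 4.65-fold higher than in pnet2_ac (log2 fold change 2.22 ± 0.19, adjusted p = 2.4e-07). COR47, which lies 1029 bases from ERD10 on the same strand with no gene between, had 476, 545 and 465 CPM in pnet2_abc, 286, 250.4 and 251 CPM in pnet2_bc, 235, 248 and 164 CPM in pnet2_ac, against 200.01, 178 and 128 CPM in WT. The 3 triple mutant libraries again lay above all others, while the pnet2_ac and WT libraries overlapped. COR47 was 1.89-fold higher in pnet2_abc than in pnet2_bc (log2 fold change 0.92 ± 0.17, adjusted p = 2.9e-04) and 2.3-fold higher than in pnet2_ac (log2 fold change 1.20 ± 0.17, adjusted p = 2.9e-05). The coding sequences of the pair are 82.3% identical, and the assignment of reads that match both genes is not stated in the labels. RAB18, the ABA-responsive dehydrin gene, had 1.16, 0.709 and 1.28 CPM in pnet2_abc, 9.62, 6.38 and 6.83 CPM in pnet2_bc, 5.06, 3.79 and 3.16 CPM in pnet2_ac, against 4.15, 5.2 and 3.56 CPM in WT. The triple mutant libraries lay below all 9 others, and those of pnet2_bc lay above all others. RAB18 was 7.23-fold lower in pnet2_abc than in pnet2_bc (log2 fold change -2.85 ± 0.29, adjusted p = 1.3e-06) and 3.81-fold lower than in pnet2_ac (log2 fold change -1.93 ± 0.28, adjusted p = 4.4e-05).

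RD29A and RD29B are tandem genes with 1185 bases between them. Only against pnet2_bc were both called in pnet2_abc, RD29A higher and RD29B lower. RD29A had 100.5, 159.9 and 132 CPM in pnet2_abc, 53.5, 42.9 and 41.9 CPM in pnet2_bc, 51.7, 30.1 and 23.8 CPM in pnet2_ac, against 23.7, 21.4 and 14.8 CPM in WT. The triple mutant libraries stood apart above the rest, and the highest pnet2_ac library was within the range of pnet2_bc. RD29A was 2.84-fold higher in pnet2_abc than in pnet2_bc (log2 fold change 1.50 ± 0.26, adjusted p = 2.2e-04) and 3.71-fold higher than in pnet2_ac (log2 fold change 1.89 ± 0.27, adjusted p = 3.4e-05). RD29B was far lower in level, with 0.681, 2.3 and 0.965 CPM in pnet2_abc, 3.92, 2.98 and 2.18 CPM in pnet2_bc, 2.88, 1.68 and 1.25 CPM in pnet2_ac, against 1.68, 2.38 and 2.36 CPM in WT. The groups overlapped, since pnet2_abc replicate 2 lay within the range of pnet2_bc and of WT. RD29B was 2.31-fold lower in pnet2_abc than in pnet2_bc (log2 fold change -1.21 ± 0.45, adjusted p = 0.0313), a call that was lost with library size alone (adjusted p = 0.0520) and without pnet2_bc replicate 1 or 2 or pnet2_abc replicate 1 or 3, with adjusted p of up to 0.112 over its alternatives. Against pnet2_ac RD29B was not called (log2 fold change -0.56 ± 0.45, adjusted p = 0.289). The coding sequences of the 2 genes are 77.3% identical over the aligned bases.

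The chloroplast-protein genes COR15A and COR15B lie 7 bases apart and had the same order of means, with pnet2_bc first, then pnet2_ac, pnet2_abc and WT. COR15A had 1.28, 2.72 and 4.39 CPM in pnet2_abc, 12.7, 10.2 and 6.68 CPM in pnet2_bc, 12.2, 2.81 and 5.31 CPM in pnet2_ac, against 0.959, 2.47 and 0.486 CPM in WT. The pnet2_abc libraries lay below those of pnet2_bc and overlapped those of pnet2_ac and WT. COR15A was 3.52-fold lower in pnet2_abc than in pnet2_bc (log2 fold change -1.81 ± 0.61, adjusted p = 0.0194) and was not called against pnet2_ac (log2 fold change -1.28 ± 0.60, adjusted p = 0.0821). COR15B had 0.259, 0.525 and 0.410 CPM in pnet2_abc, 1.15, 0.904 and 0.828 CPM in pnet2_bc, 1.06, 0.570 and 0.652 CPM in pnet2_ac, against 0.328, 0.290 and 0.216 CPM in WT. Its pnet2_abc libraries lay below those of both double mutants and overlapped WT. COR15B was 2.41-fold lower in pnet2_abc than in pnet2_bc (log2 fold change -1.27 ± 0.49, adjusted p = 0.0360) and was not called against pnet2_ac (log2 fold change -0.93 ± 0.48, adjusted p = 0.110). The calls against pnet2_bc were lost for COR15A without pnet2_bc replicate 1 or pnet2_abc replicate 1 or 2 (adjusted p up to 0.0711) and for COR15B in 7 of the 20 alternatives with a value (up to 0.116). COR15B shares 468 bases with AT2G42520 on the opposite strand. The protocol was strand-specific per the labels, but the strand setting of the counting is not given. Whether the counts keep reads of the 2 genes apart is therefore not known.

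KIN1 had 12.4, 11.4 and 13.6 CPM in pnet2_abc, 16.9, 21.5 and 24.6 CPM in pnet2_bc, 24.5, 33.3 and 20.4 CPM in pnet2_ac, against 20.1, 23.1 and 22.8 CPM in WT. The triple mutant libraries lay below all 9 others, and the other 3 genotypes overlapped. KIN1 was 1.69-fold lower in pnet2_abc than in pnet2_bc (log2 fold change -0.76 ± 0.17, adjusted p = 0.00162) and 2.1-fold lower than in pnet2_ac (log2 fold change -1.07 ± 0.17, adjusted p = 1.1e-04). Its tandem copy KIN2, 892 bases away and 95.0% identical over 201 coding bases, had 163, 235 and 152 CPM in pnet2_abc, 98.6, 107 and 98.7 CPM in pnet2_bc, 107, 108 and 76.5 CPM in pnet2_ac, against 80.4, 95.6 and 92.0 CPM in WT. KIN2 was 2.05-fold higher in pnet2_abc than in WT (log2 fold change 1.04 ± 0.16, adjusted p = 7.2e-05), where KIN1 was 1.77-fold lower (log2 fold change -0.82 ± 0.17, adjusted p = 8.4e-04). KIN1 made up 4.62% to 8.18% of the summed CPM of the pair in pnet2_abc, 14.6% to 19.97% in pnet2_bc, 18.6% to 23.5% in pnet2_ac and 19.5% to 20.01% in WT. The sum of the pair averaged 195.8 ± 43.7 CPM in pnet2_abc, 122 ± 6.58 CPM in pnet2_bc, 123 ± 23.5 CPM in pnet2_ac and 111 ± 9.55 CPM in WT (SD, n = 3 each). Reads common to the 2 copies could have been split by the counting, so the value of either gene alone is uncertain.

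RD20 had 64.7, 75.8 and 63.4 CPM in pnet2_abc, 52.5, 47.6 and 30.2 CPM in pnet2_bc, 49.4, 13.9 and 15.8 CPM in pnet2_ac, against 7.24, 5.04 and 4.84 CPM in WT. All mutant libraries lay above WT, the pnet2_abc libraries lay above those of both double mutants, and pnet2_ac replicate 1 stood far above the other two of its group. RD20 was 2.57-fold higher in pnet2_abc than in pnet2_ac (log2 fold change 1.36 ± 0.39, adjusted p = 0.00774). Against pnet2_bc it was not called (log2 fold change 0.65 ± 0.38, adjusted p = 0.157), although it was when only those 2 genotypes were fitted or pnet2_ac replicate 1 was left out. P5CS1 had 24.1, 22.7 and 30.8 CPM in pnet2_abc, 276, 225 and 268 CPM in pnet2_bc, 171, 106 and 116 CPM in pnet2_ac, against 102, 114 and 122 CPM in WT. The triple mutant libraries were below all others by a wide margin, the pnet2_bc libraries were above all others, and pnet2_ac overlapped WT. P5CS1 was 9.92-fold lower in pnet2_abc than in pnet2_bc (log2 fold change -3.31 ± 0.18, adjusted p = 3.6e-09) and 5.08-fold lower than in pnet2_ac (log2 fold change -2.34 ± 0.17, adjusted p = 7.4e-08). P5CS1 shares 91 bases with AT2G39795 on the opposite strand.

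**Figure D3:**
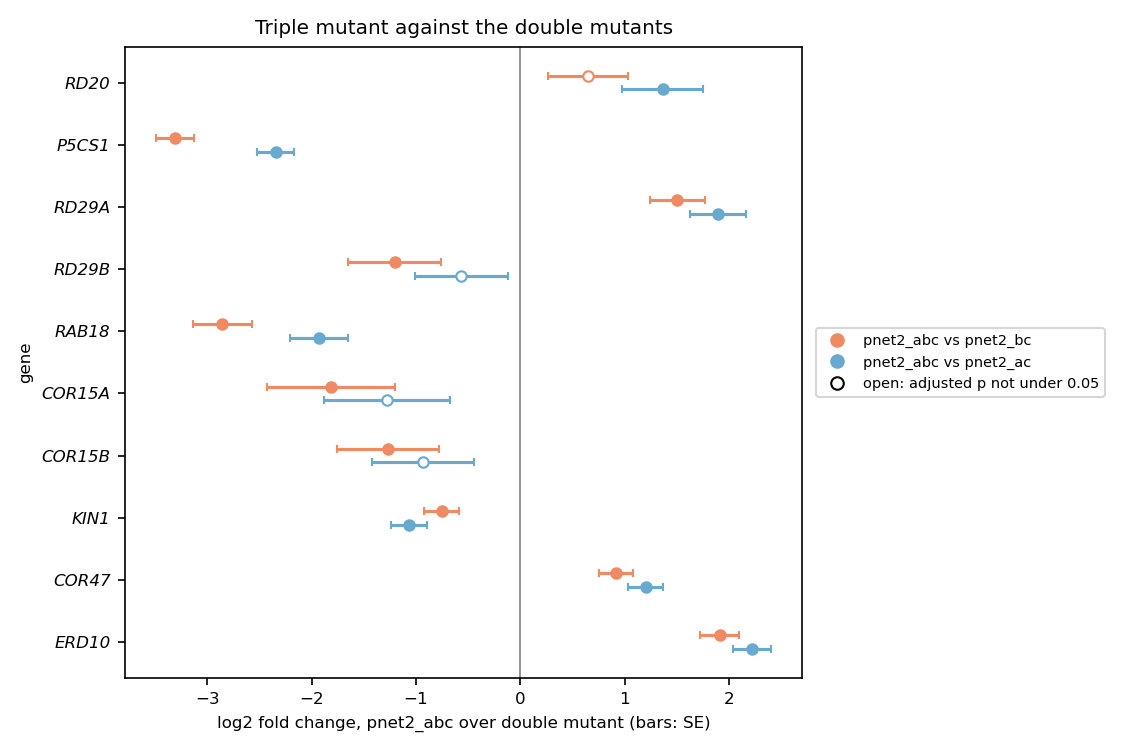
Log2 fold change of the 10 genes in pnet2_abc over pnet2_bc (orange) and over pnet2_ac (blue), with bars for the standard error; open points did not pass an adjusted p of 0.05. ERD10, RD29A and COR47 lie right of 0 in both comparisons and P5CS1, RAB18 and KIN1 left of 0 in both.

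Each mutant was then set against WT. In pnet2_abc 4 genes were higher (RD20, RD29A, COR47 and ERD10) and 3 lower (P5CS1, RAB18 and KIN1), where 32.5% of the tested genes rose and 32% fell. In pnet2_bc 3 genes were higher (RD20, P5CS1 and ERD10) and none lower, where 0.3% of the tested genes rose and 0.343% fell. By DESeq2, 7 of the 10 were higher in pnet2_bc. DESeq2 called more of all genes there, 680 against 150 by edgeR, with 43.8% of the 680 higher. In pnet2_ac RD20 was higher and none lower, where 0.45% of the tested genes rose and 0.69% fell, and DESeq2 called 3 higher. Of all genes DESeq2 called 1101 in pnet2_ac, 39.96% of them higher, against 266 by edgeR. By edgeR at an unadjusted p under 0.05, by DESeq2 and by limma on TPM, 0 of the 10 were lower in either double mutant. The libraries of pnet2_abc lay wholly above WT for 4 of the 10 genes and wholly below for 3, against 35.8% and 33.6% of all tested genes. Those of pnet2_bc lay wholly above WT for 8 of the 10 and below for 0, against 8.68% and 8.35%. Those of pnet2_ac lay wholly above for 5 and below for 0, against 9.73% and 9.91%. The median log2 fold change of the 10 was 0.81 in pnet2_abc, 1.14 in pnet2_bc and 0.57 in pnet2_ac, and that of all tested genes was between 0.00 and 0.01. The 3 comparisons share the WT libraries.

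ERD10 was 8.05-fold higher in pnet2_abc than in WT (log2 fold change 3.01 ± 0.19, adjusted p = 1.5e-08) and 2.15-fold higher in pnet2_bc (log2 fold change 1.10 ± 0.18, adjusted p = 0.0186). In pnet2_ac the value missed the threshold (log2 fold change 0.79 ± 0.18, adjusted p = 0.0562), and the pnet2_bc call was lost in 5 alternatives, each of which left out 1 or 2 libraries, with adjusted p of up to 0.0886. COR47 was 2.93-fold higher in pnet2_abc (log2 fold change 1.55 ± 0.17, adjusted p = 2.6e-06), and its values in pnet2_bc (log2 fold change 0.64 ± 0.16, adjusted p = 0.115) and pnet2_ac (log2 fold change 0.35 ± 0.16, adjusted p = 0.347) were not called. RD29A was 6.54-fold higher in pnet2_abc (log2 fold change 2.71 ± 0.28, adjusted p = 1.4e-06) and was not called in pnet2_bc (log2 fold change 1.21 ± 0.26, adjusted p = 0.0649) or pnet2_ac (log2 fold change 0.82 ± 0.26, adjusted p = 0.160). For these 3 genes the order of the means was the same, with pnet2_abc first, then pnet2_bc, pnet2_ac and WT. The 2 double mutants did not differ past the threshold in any of the 3, at adjusted p of 0.579 for ERD10, 0.579 for COR47 and 0.655 for RD29A.

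P5CS1 was 4.36-fold lower in pnet2_abc than in WT (log2 fold change -2.12 ± 0.17, adjusted p = 1.6e-07) and 2.28-fold higher in pnet2_bc (log2 fold change 1.19 ± 0.17, adjusted p = 0.0101), and both calls held in every alternative run. In pnet2_ac it was not called (log2 fold change 0.22 ± 0.17, adjusted p = 0.612). It was the single gene of the 10 called between the double mutants, 1.95-fold higher in pnet2_bc than in pnet2_ac (log2 fold change 0.97 ± 0.17, adjusted p = 0.0373), where 0.129% of all tested genes were called in each direction. The pnet2_bc libraries lay wholly above those of pnet2_ac for 3 of the 10 genes and wholly below for 0, against 9.24% and 8.9% of all tested genes. The call of P5CS1 between the double mutants was lost in 11 of 24 alternatives, with adjusted p of up to 0.18. RAB18 was 4.09-fold lower in pnet2_abc than in WT (log2 fold change -2.03 ± 0.28, adjusted p = 2.7e-05), and its values in pnet2_bc (log2 fold change 0.82 ± 0.26, adjusted p = 0.219) and pnet2_ac (log2 fold change -0.10 ± 0.26, adjusted p = 0.923) were not called, although no pnet2_bc library overlapped WT. KIN1 was not called in pnet2_bc (log2 fold change -0.07 ± 0.17, adjusted p = 0.942) or pnet2_ac (log2 fold change 0.24 ± 0.17, adjusted p = 0.568).

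RD20 was 11.9-fold higher in pnet2_abc than in WT (log2 fold change 3.57 ± 0.43, adjusted p = 7.1e-06), and it was the one gene of the 10 called higher in all 3 mutants. Its call in pnet2_bc was lost without WT replicate 2 or 3 (adjusted p up to 0.0535), and its call in pnet2_ac was lost without any one WT library, without WT replicate 1 and pnet2_ac replicate 2 together, and with unfiltered TPM (up to 0.0976). COR15A averaged 2.80 ± 1.56 CPM in pnet2_abc, 9.86 ± 3.01 CPM in pnet2_bc, 6.77 ± 4.86 CPM in pnet2_ac and 1.3 ± 1.04 CPM in WT (SD, n = 3 each). Its difference from WT was not called in pnet2_bc (log2 fold change 2.92 ± 0.65, adjusted p = 0.0670), in pnet2_ac (log2 fold change 2.39 ± 0.64, adjusted p = 0.0975) or in pnet2_abc (log2 fold change 1.11 ± 0.62, adjusted p = 0.138), with no overlap of either double mutant with WT. COR15B had means of 0.398 ± 0.133 CPM in pnet2_abc, 0.961 ± 0.168 CPM in pnet2_bc, 0.760 ± 0.261 CPM in pnet2_ac and 0.278 ± 0.0572 CPM in WT, and was likewise called in none of the 3 mutants. RD29B was called in none, with log2 fold changes of -0.71 in pnet2_abc, 0.50 in pnet2_bc and -0.14 in pnet2_ac.

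**Figure D4:**
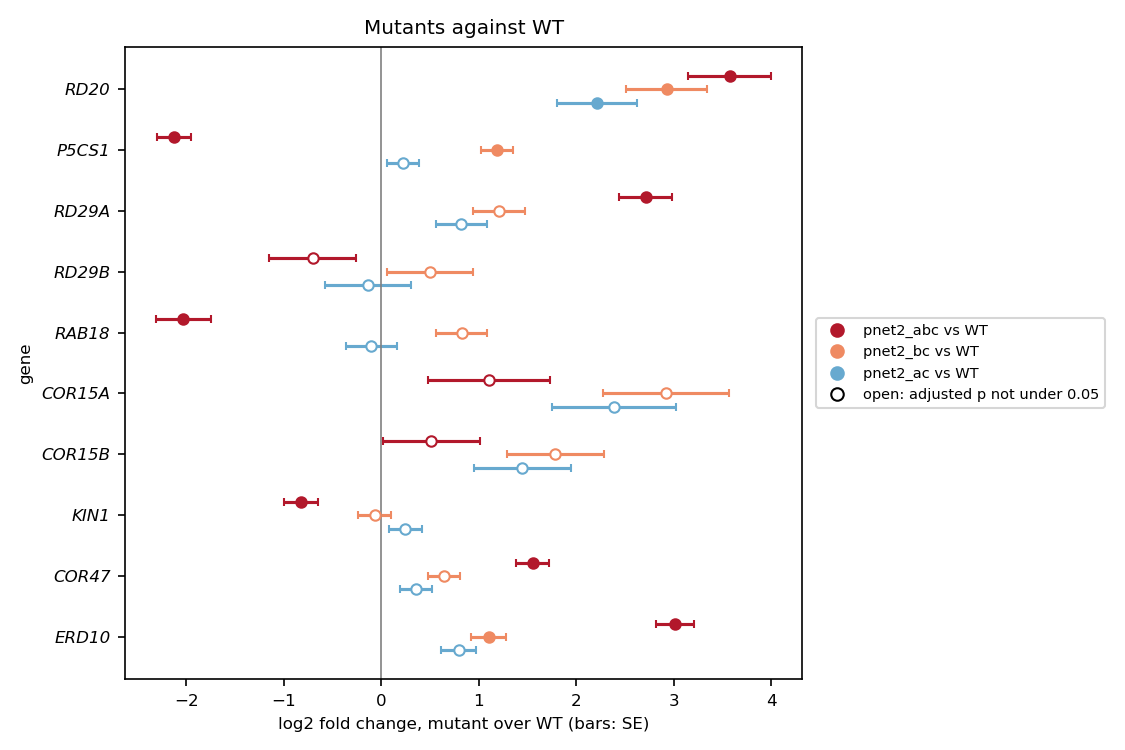
Log2 fold change of the 10 genes over WT in pnet2_abc (dark red), pnet2_bc (orange) and pnet2_ac (blue), with bars for the standard error; open points did not pass an adjusted p of 0.05. P5CS1 and RAB18 lie left of 0 in pnet2_abc and right of 0 in pnet2_bc, and RD20 lies right of 0 in all 3 mutants.

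Set beside the promoter sequences, the 4 genes called higher in pnet2_abc than in WT were RD29A, with DRE/CRT cores alone, RD20, with ABRE cores alone, and COR47 and ERD10, with neither. Of the 3 called lower, RAB18 and KIN1 held ABRE cores alone and P5CS1 held neither. Genes with ABRE cores alone and genes with neither were found on both sides, while the only gene with DRE/CRT cores alone, RD29A, was called higher. Cores outside these windows were not sought. The count is too small for a test, and the part of the cores in the direction was not tested.

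In the double mutants and WT one library was the highest or lowest of its genotype for most of the 10 genes. Within pnet2_bc, replicate 1 was the highest of the 3 libraries for 9 of the 10 genes, and it was so for 33.4% of all tested genes. Within pnet2_ac, replicate 1 was the highest for 8 of the 10, against 31.4% of all tested genes. Within WT, replicate 3 was the lowest for 7 of the 10, against 33.6%. Replicate 3 was also the lowest for 6 of the 10 in pnet2_ac and for 6 in pnet2_bc, against 31.4% and 34.7%. Replicate 1 of WT was the highest for 5, against 34.1%. In pnet2_abc replicate 1 was the highest for 0 and the lowest for 4, against 32.1% and 34.1%. Within pnet2_abc, replicate 2 was the highest for 6 genes and the lowest for 3, against 34.7% and 37.7% of all tested genes, and replicate 3 was the highest for 4 and the lowest for 3, against 34.3% and 30.5%. The 5 genes outside the 10 whose profiles over the 12 libraries were most like the mean standardised log2 CPM of the 10 were AT2G41190, AT2G47440, EXL5, AT3G19680 and AT3G14470, with Pearson r of 0.971, 0.936, 0.934, 0.919 and 0.877. These points share 4 genotypes and the depth of each library, so r describes the profiles and is not tested. The 10 genes did not share a profile, so their mean stands for few of them. ERD10 had r of 0.984 with RD29A and 0.978 with COR47, but -0.807 with KIN1, -0.735 with RAB18 and -0.726 with P5CS1. AT2G41190, annotated as an amino acid transporter family protein, averaged 15.5 CPM in pnet2_abc, 28.2 CPM in pnet2_bc, 17.2 CPM in pnet2_ac and 9.79 CPM in WT. Its highest mean was in pnet2_bc, as was that of the profile by which it was picked.

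Other genes of proline metabolism were examined beside P5CS1, from a list of 10 enzymes and transporters. In pnet2_abc 7 were higher than WT, 2 lower and 1 not called, against 32.5% higher and 32% lower among all tested genes. P5CS2, the second gene for the same synthetic step, had 128, 119 and 117 CPM in pnet2_abc, 306, 274 and 311 CPM in pnet2_bc, 269.7, 253 and 258 CPM in pnet2_ac, against 336, 332 and 325 CPM in WT. Its libraries in pnet2_abc lay below all others, and it was 2.73-fold lower than in WT (log2 fold change -1.45 ± 0.06, adjusted p = 5.1e-10). In pnet2_ac it was 1.27-fold lower than in WT (log2 fold change -0.35 ± 0.06, adjusted p = 0.0243), the one gene of the list called in a double mutant, a call lost without any single library of WT or pnet2_ac (adjusted p up to 0.177 over its alternatives), and in pnet2_bc it stood at 274 to 311 CPM, below all WT libraries. P5CR, which encodes the reductase of the next and last step, had 239, 243 and 262 CPM in pnet2_abc, against 163, 159.8 and 174 CPM in WT and rose 1.50-fold in the triple mutant (log2 fold change 0.58 ± 0.08, adjusted p = 1.4e-05). Of the breakdown route, PRODH1, the proline dehydrogenase gene that the reference lists as ERD5, had 203, 198 and 196 CPM in pnet2_abc, against 376, 388 and 339 CPM in WT and fell 1.85-fold (log2 fold change -0.89 ± 0.09, adjusted p = 1.7e-06). P5CDH, of the following step, had 154, 169 and 177 CPM in pnet2_abc, against 63.3, 67.2 and 60.5 CPM in WT and rose 2.62-fold (log2 fold change 1.39 ± 0.08, adjusted p = 3.3e-09), and 905 of its bases overlap AT5G62520 on the opposite strand. LHT1, an amino acid transporter gene, rose most in the list, with 62.0, 76.6 and 83.3 CPM in pnet2_abc, against 6.78, 8.93 and 4.75 CPM in WT (log2 fold change 3.44 ± 0.21, adjusted p = 9.2e-09). AT5G38710, the second proline dehydrogenase gene of the list beside PRODH1, was called higher than in WT. It had 4.46, 4.07 and 4.46 CPM in pnet2_abc, against 2.69, 1.74 and 1.38 CPM in WT (log2 fold change 1.16 ± 0.27, adjusted p = 0.00185).

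Regulators of such genes were taken from lists of the ABA, cold and drought routes. Of 15 cold regulators, 10 were higher and 4 lower in pnet2_abc than in WT, where 32.5% and 32% of all tested genes were called. The list had a median log2 fold change of 2.62 where that of all tested genes was 0.01. CBF1 had 1.42, 1.70 and 1.64 CPM in pnet2_abc, and 0.216, 0 and 0 CPM in pnet2_bc and no counts in the 6 libraries of pnet2_ac and WT, a level at least 38.5-fold higher than in WT, taking 3 counts per library as the floor. CBF2 had 4.55, 7.36 and 6.29 CPM in pnet2_abc, 0.0676, 0.217 and 0.179 CPM in pnet2_bc, 0.140, 0.0662 and 0.188 CPM in pnet2_ac, against 0.158, 0.232 and 0.0675 CPM in WT (log2 fold change 5.31 ± 0.54, adjusted p = 1.5e-06 in pnet2_abc over WT). CBF3 had 1.09, 0.681 and 0.627 CPM in pnet2_abc, 0, 0.102 and 0 CPM in pnet2_bc, and 0.184, 0 and 0.0579 CPM in pnet2_ac, and no counts in WT, a level at least 19.4-fold higher in pnet2_abc. Outside the triple mutant the CBF genes stood at 0 to 0.232 CPM. ICE1, the gene of the factor that activates CBF genes in the cold, had 25.5, 23.7 and 33.8 CPM in pnet2_abc, against 84.3, 81.3 and 68.9 CPM in WT and was 2.82-fold lower in pnet2_abc (log2 fold change -1.50 ± 0.14, adjusted p = 6.2e-07). Its relative ICE2 fell most in the list, to 4.13 to 5.94 CPM in pnet2_abc, against 45.7 to 50.2 CPM in WT (log2 fold change -3.27 ± 0.27, adjusted p = 1.9e-07). STZ, a zinc finger gene of abiotic stress, was higher in pnet2_abc (log2 fold change 4.67 ± 0.22, adjusted p = 8.5e-10) and lower in pnet2_bc (log2 fold change -1.17 ± 0.22, adjusted p = 0.0322), with 87.5, 96.3 and 76.3 CPM in pnet2_abc, 1.97, 1.52 and 1.05 CPM in pnet2_bc, against 4.28, 2.79 and 3.16 CPM in WT. The pnet2_bc call of STZ was lost in 10 of 24 alternatives, among them those without any single WT library or pnet2_bc replicate 2 or 3 (adjusted p up to 0.138).

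Of 14 drought regulators, 11 were higher and 1 lower in pnet2_abc than in WT, beside 32.5% and 32% of all tested genes. In pnet2_bc, where the background shares were 0.3% higher and 0.343% lower, edgeR called 0 of them, with 3 higher and 2 lower at an unadjusted p under 0.05 and 1 higher by DESeq2. In pnet2_ac, where the shares were 0.45% and 0.69%, edgeR called 0, with 1 higher and 1 lower at an unadjusted p under 0.05 and 0 by DESeq2. DREB2A, whose product binds the DRE element, had 13.2, 11.5 and 8.62 CPM in pnet2_abc, 1.97, 2.41 and 1.68 CPM in pnet2_bc, 2.57, 1.27 and 1.48 CPM in pnet2_ac, against 1.60, 2.15 and 1.40 CPM in WT and was 6.46-fold higher in pnet2_abc (log2 fold change 2.69 ± 0.30, adjusted p = 3.2e-06). NAC019, a stress NAC factor gene, stood at 19.8 to 29.9 CPM in pnet2_abc, 0.166 to 0.703 CPM in pnet2_bc, 0 to 2.31 CPM in pnet2_ac and 0.145 to 0.263 CPM in WT (log2 fold change 7.04 ± 1.09, adjusted p = 7.4e-05). DREB2C rose most against pnet2_bc, to 2.34 to 5.06 CPM in pnet2_abc, against 0 to 0.102 CPM in pnet2_bc. DRIP1, whose product marks DREB2A for degradation, was lower (log2 fold change -0.66 ± 0.15, adjusted p = 0.00200).

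ABA signalling genes were called in both directions in the triple mutant, with 10 of 26 higher, 8 lower and 8 not called, against 32.5% higher and 32% lower among all tested genes. Of the ABF genes, whose products bind the ABRE, ABF2, ABF3 and ABF4 were lower there. ABF1, named after its values were seen, was higher (log2 fold change 0.70 ± 0.29, adjusted p = 0.0448), with 4.25, 3.29 and 3.68 CPM in pnet2_abc, against 1.51, 2.56 and 2.82 CPM in WT. ABF3 had 64.6, 79.0 and 57.4 CPM in pnet2_abc, 182, 145 and 180.1 CPM in pnet2_bc, 121, 116 and 117 CPM in pnet2_ac, against 133, 103 and 146 CPM in WT, with pnet2_abc below all others, and was 1.90-fold lower than in WT (log2 fold change -0.93 ± 0.14, adjusted p = 5.1e-05). ABF2 (log2 fold change -0.37 ± 0.12, adjusted p = 0.0158) and ABF4 (log2 fold change -0.35 ± 0.11, adjusted p = 0.0165) fell less, and both calls were lost when counts were scaled by library size alone or TPM were used, as was that of ABF2 without WT replicate 3 or pnet2_abc replicate 2 and that of ABF4 without WT replicate 1 or 2 or pnet2_abc replicate 3 (adjusted p up to 0.294 and 0.44 over their alternatives). ABF4 contains 2516 bases of overlap with AT3G03815 on the opposite strand. HAI1, a PP2C phosphatase gene that ABA induces, was higher in pnet2_abc (log2 fold change 1.83 ± 0.40, adjusted p = 0.00134) and in pnet2_bc (log2 fold change 2.17 ± 0.41, adjusted p = 0.0331), with 19.7, 20.1 and 21.0 CPM in pnet2_abc, 33.9, 26.2 and 17.1 CPM in pnet2_bc, 32.6, 8.24 and 11.7 CPM in pnet2_ac, against 5.52, 6.20 and 5.42 CPM in WT. Its libraries in pnet2_ac were spread like those of RD20, with replicate 1 far above the others. The pnet2_bc call of HAI1 was lost without any single WT library and without pnet2_bc replicate 1 or 2 (adjusted p up to 0.135). In pnet2_bc 3 of the 26 were higher (ABI2, PP2CA and HAI1, all PP2C genes) and 3 lower (PYL4, PYL5 and PYL6, all receptor genes). The remaining 20 were not called, other PP2C and receptor genes among them. For ABI2, PP2CA, PYL4 and PYL5 the single calls were not followed over the alternatives. Among all tested genes 0.3% were higher and 0.343% lower in pnet2_bc. PYL6 had 25.4, 21.1 and 28.4 CPM in pnet2_abc, 2.84, 3.82 and 4.03 CPM in pnet2_bc, 6.35, 9.09 and 9.93 CPM in pnet2_ac, against 8.47, 9.46 and 7.39 CPM in WT, lower than WT in pnet2_bc (log2 fold change -1.24 ± 0.19, adjusted p = 0.0147) and higher in pnet2_abc (log2 fold change 1.57 ± 0.19, adjusted p = 7.1e-06). The pnet2_bc call of PYL6 was lost without WT replicate 2 or pnet2_bc replicate 1 or 2 (adjusted p up to 0.068). PYL2, also a receptor gene, fell most in pnet2_abc among the called genes of the list (log2 fold change -1.62 ± 0.21, adjusted p = 1.9e-05). The receptor gene PYL1, named after its values were seen, had a larger fall in mean but was not called. It averaged 7.70 ± 10.5 CPM in pnet2_abc and 36.1 ± 2.68 CPM in WT (SD, n = 3 each). In pnet2_ac edgeR called 0 genes of the list, with 2 higher and 2 lower at an unadjusted p under 0.05 and 1 higher by DESeq2.

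Of 15 genes of ABA synthesis, breakdown and transport, 4 were higher and 1 lower in pnet2_abc than in WT, where 32.5% and 32% of all tested genes were called. The 4 were AAO3, ABA3, CYP707A1 and CYP707A3, and the 1 was ABA1. AAO3 and ABA3, named after their values were seen, are also genes of ABA synthesis. AAO3 averaged 58.6 ± 7.77 CPM in pnet2_abc and 23.9 ± 1.50 CPM in WT (SD, n = 3 each). ABA3 averaged 18.6 ± 1.75 CPM in pnet2_abc and 10.9 ± 1.54 CPM in WT. ABA1, an early gene of ABA synthesis, had 114, 113 and 129 CPM in pnet2_abc, against 538, 505 and 532 CPM in WT and was 4.44-fold lower (log2 fold change -2.15 ± 0.09, adjusted p = 4.5e-10). NCED3, of the drought-induced step, had 3.79, 6.85 and 3.01 CPM in pnet2_abc, against 4.23, 4.44 and 3.13 CPM in WT and was not called (log2 fold change 0.21 ± 0.43, adjusted p = 0.692). CYP707A3, an ABA hydroxylase gene of breakdown, had 41.8, 57.8 and 36.0 CPM in pnet2_abc, against 3.17, 3.15 and 3.67 CPM in WT and was 13.6-fold higher (log2 fold change 3.76 ± 0.21, adjusted p = 3.9e-09). ABCG40, an ABA importer gene, stood at 0.613 to 0.681 CPM in pnet2_abc and 0.861 to 7.86 CPM in pnet2_ac, with pnet2_ac replicate 1 highest, and was lower in pnet2_abc than in pnet2_ac (log2 fold change -2.67 ± 0.70, adjusted p = 0.00447). In WT it stood at 0.302 to 0.901 CPM, and pnet2_abc was not called against WT (log2 fold change 0.36 ± 0.69, adjusted p = 0.671).

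Of 26 other protective genes of drought and cold, 11 were higher and 6 lower in pnet2_abc than in WT, where 32.5% and 32% of all tested genes were called. In pnet2_bc edgeR called 0, with 11 higher at an unadjusted p under 0.05 and 4 higher by DESeq2, and in pnet2_ac it called 0, with 4 higher and 2 lower at an unadjusted p under 0.05 and 1 higher by DESeq2. Of all genes DESeq2 called 680 in pnet2_bc and 1101 in pnet2_ac, against 150 and 266 by edgeR. How many of all tested genes reached an unadjusted p under 0.05 was not counted, so these counts have no background beside them. LTP4, a lipid transfer protein gene, had 47.7, 61.7 and 39.1 CPM in pnet2_abc, against 0.328, 0.232 and 0 CPM in WT (log2 fold change 8.04 ± 0.86, adjusted p = 2.4e-06). GOLS2, a galactinol synthase gene of drought and salt stress, had 0.491, 0.0993 and 0.289 CPM in pnet2_abc, 10.3, 6.47 and 8.90 CPM in pnet2_bc, 6.82, 2.37 and 2.48 CPM in pnet2_ac, against 2.39, 3.09 and 2.36 CPM in WT, with pnet2_abc below all others (log2 fold change -3.15 ± 0.52, adjusted p = 1.2e-04 against WT). Like RAB18 and P5CS1, GOLS2 was lower in pnet2_abc than in pnet2_bc (log2 fold change -4.85 ± 0.54, adjusted p = 3.3e-06). Of the other caleosin genes, 3 had enough counts to be tested and all 3 were higher in pnet2_abc. CLO4 had 21.5, 21.0 and 22.1 CPM in pnet2_abc, against 9.23, 9.66 and 7.52 CPM in WT (log2 fold change 1.29 ± 0.12, adjusted p = 4.8e-07). CLO5 had 1.65, 2.68 and 2.38 CPM in pnet2_abc, against 0, 0 and 0.162 CPM in WT (log2 fold change 5.32 ± 1.23, adjusted p = 0.00274). CLO1 had 0.150, 0.128 and 0.193 CPM in pnet2_abc and no counts in WT. DESeq2 called 2 of the 3 higher.

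**Figure D5:**
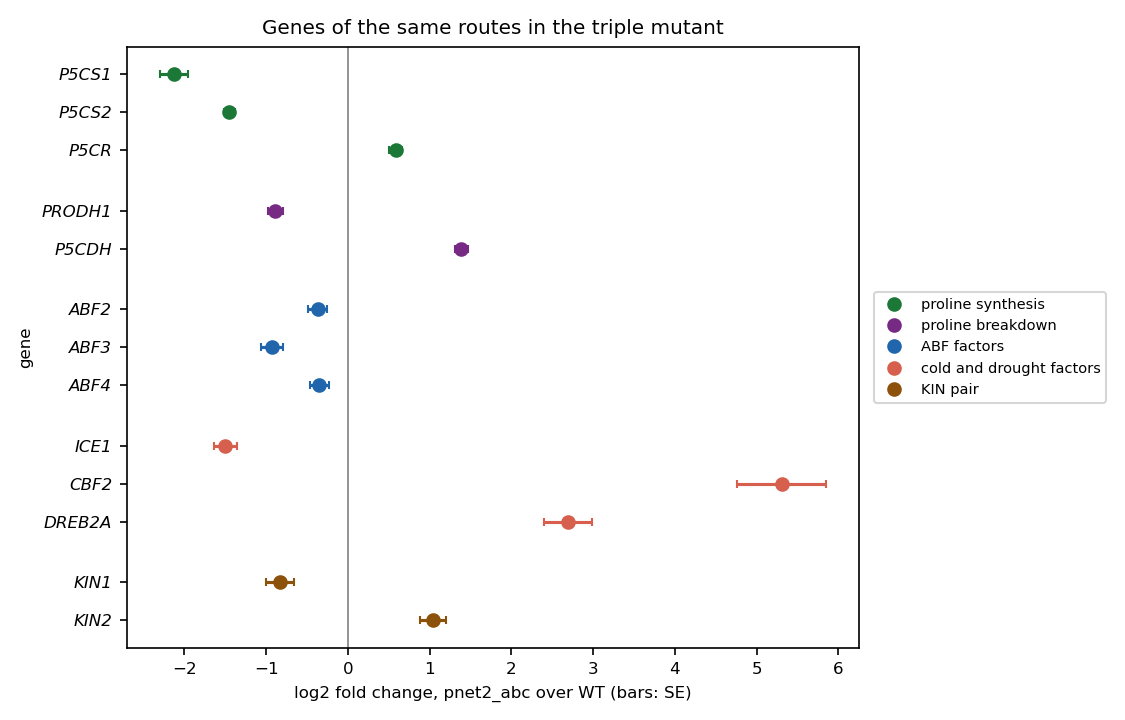
Log2 fold change in pnet2_abc over WT of selected genes of proline synthesis and breakdown, ABF, cold and drought factors, and the KIN pair. Bars show the standard error. All points passed an adjusted p of 0.05, those of ABF2 and ABF4 not when scaled by library size alone. Among the genes not plotted are ABF1 and AT5G38710, both called higher. P5CS1 and P5CS2 lie left of 0, P5CR and P5CDH right of it, and KIN1 and KIN2 on opposite sides.

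Markers of other cell types were followed beside these genes, because RD20 and other ABA-responsive genes are also expressed in guard cells and in seeds. The 6 guard cell markers summed to 53.8 to 59.1 CPM in pnet2_abc, 89.7 to 105 CPM in pnet2_bc, 79.0 to 84.6 CPM in pnet2_ac and 95.6 to 99.7 CPM in WT. Of the 6, 4 were called lower in pnet2_abc than in WT, MYB60 the most, where 32% of all tested genes were called lower. GC1 was also lower in pnet2_ac (log2 fold change -0.53 ± 0.09, adjusted p = 0.0204), with 30.9, 31.7 and 26.1 CPM in pnet2_abc, 44.8, 44.1 and 51.1 CPM in pnet2_bc, 36.7, 38.4 and 38.7 CPM in pnet2_ac, against 54.2, 59.4 and 50.7 CPM in WT, a call lost in 6 of 24 alternatives, each of which left out 1 or 2 libraries (adjusted p up to 0.126). None of the 6 was at 0 in a genotype, and their part in the results was not tested. The 10 seed maturation markers summed to 1.23 to 4.43 CPM in pnet2_abc, 0.607 to 0.784 CPM in pnet2_bc, 0.174 to 1.61 CPM in pnet2_ac and 1.04 to 1.34 CPM in WT. Of these 10, 5 were at 0 in all libraries of each of pnet2_bc, pnet2_ac and WT, among them CRU3, SESA1, SESA2 and SESA3 in each. In pnet2_abc 0 of the 10 were at 0 in all 3 libraries. Of the 10, 4 had enough counts to be tested. By edgeR 0 of the 4 were called in any mutant against WT, and 0 reached an unadjusted p under 0.05. DESeq2 called 1 higher in pnet2_abc and 0 in pnet2_bc and pnet2_ac.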

How the data were processed

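Messenger RNA of whole seedlings was sequenced in 12 libraries, 3 per genotype, made with a strand-specific Illumina protocol per the labels. The submitters' processing notes name HISAT2 2.0.4, HTSeq 0.6.1p1 and the build TAIR10, without roles or a strand setting, while the deposited TPM table is named for kallisto, so how reads shared by similar genes were assigned is not known. The authors deposited a table of raw read counts per gene and a table of TPM (transcripts per 1000000) per gene, in which 4 further columns (exon number, transcript length, highest TPM and highest expected count of each gene, per the file headers) were not used. For all 19907 genes with at least 10 counts in every library, the ratio of count to TPM was constant over libraries within 1% once each library's scale was removed. The TPM are therefore the same quantification divided by a fixed length, not an independent one. Every column was mapped to a sample by its name, with 0 left unmapped.

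Counts were fitted with edgeR 4.0.16 in R 4.3.3 (filterByExpr, TMM factors, glmQLFit and glmQLFTest) over all 12 libraries with 8 residual degrees of freedom, and p-values were adjusted by Benjamini-Hochberg over 23330 tested genes in each of 6 comparisons. Standard errors were derived from the fold change and its F statistic. Alternatives used DESeq2 1.42.0 and limma 3.58.1 on log2(TPM + 1), other scalings and filters, a replicate block and left-out libraries. The code was tested on simulated counts. Chi-square per degree of freedom between libraries of a genotype was 32.1 to 50.3, beyond counting noise, so none was counted as a duplicate. Over all tested genes replicate numbers did not pair the libraries: over 18 pairs the correlation of deviations was -0.0281 to 0.0721, with 0 over 0.1. The 10 genes alone were not checked in this way. For them replicate 1 was the highest for 5, 8 and 9 genes in WT, pnet2_ac and pnet2_bc, and for 0 in pnet2_abc.

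Gene starts, overlaps and promoters were read from the RefSeq genome and annotation of TAIR10.1, with coding sequences of tandem pairs aligned with Biopython 1.88. Protein sequences were not used here. Of the listed gene identifiers 27173 matched the reference and 263 did not. The 10 genes and all other lists were chosen with earlier results of these data known. Named besides the 10 were the paralogs, enzymes and regulators P5CS2, P5CR, P5CDH, PRODH1, AT5G38710, KIN2, CBF1, CBF2, CBF3, ICE1, NCED3, ABF2, ABF3, ABF4 and DREB2A, the called gene with the largest rise and the largest fall in each list and comparison where the mean level reached 1 CPM or more, and the 5 genes most like the mean profile.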

Additional observations from a re-analysis of the deposited data

Results flagged for a closer look

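For 4 of the 10 genes the change against WT had opposite signs in the triple mutant and in a double mutant. For each of the 4, edgeR's test of the difference between these mutants passed the threshold. Such differences were common, with 7416 genes up and 7527 down of 23330 in pnet2_abc over pnet2_bc. Over pnet2_ac the numbers were 7156 up and 7516 down. How often other genes met both conditions was not counted, so the 4 are not shown to stand out. P5CS1 had a log2 fold change over WT of -2.12 in pnet2_abc and 1.19 in pnet2_bc, a difference of -3.31 (adjusted p = 3.6e-09), and 0.22 in pnet2_ac, a difference of -2.34 (adjusted p = 7.4e-08). RAB18 stood at -2.03 in pnet2_abc and 0.82 in pnet2_bc, a difference of -2.85 (adjusted p = 1.3e-06). KIN1 stood at -0.82 in pnet2_abc and 0.24 in pnet2_ac, a difference of -1.07 (adjusted p = 0.000107), with the share of reads between KIN1 and KIN2 uncertain. RD29B stood at -0.71 in pnet2_abc and 0.50 in pnet2_bc, a difference of -1.21 (adjusted p = 0.0313) that was lost in 5 alternatives. Of the changes against WT themselves, those of P5CS1 in pnet2_abc and pnet2_bc and those of RAB18 and KIN1 in pnet2_abc were called.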

How the results depend on the processing

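Over 24 alternatives, 21 of the 28 calls of the 10 genes held in every alternative that could be run for them. In pnet2_bc over WT, 3 genes were called higher, against 7 by DESeq2, 5 with a replicate block and 5 when only the compared genotypes were fitted. In pnet2_ac over WT, 1 was called higher, against 3 by DESeq2, 2 with library size alone, a mean of at least 5 CPM, the replicate block, no pnet2_abc libraries, log2(TPM + 1) or log2(TPM + 0.1), and 0 with unfiltered TPM or without WT replicate 1 and pnet2_ac replicate 2 together. In pnet2_abc over pnet2_bc, 6 were called lower, against 3 with a mean of at least 5 CPM, where fewer of the 10 genes were tested. In pnet2_bc over pnet2_ac, 1 was called higher, against 2 by DESeq2 and 0 when only these genotypes were fitted, without WT replicate 1 and pnet2_ac replicate 2 together, or with unfiltered TPM. DESeq2 also called more of all genes than edgeR, 680 against 150 in pnet2_bc over WT and 1101 against 266 in pnet2_ac over WT. In pnet2_bc over pnet2_ac it called 517 against 60. The cause of these shifts was otherwise not tested.

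Leaving out 1 library at a time gave 4 to 5 genes higher and 3 to 4 lower in pnet2_abc over WT, 1 to 5 higher in pnet2_bc over WT and 0 to 2 higher in pnet2_ac over WT, with 0 lower in both. It gave 3 to 4 higher and 3 to 6 lower in pnet2_abc over pnet2_bc, 4 higher and 3 to 4 lower in pnet2_abc over pnet2_ac, and 0 to 2 higher with 0 lower in pnet2_bc over pnet2_ac. Where one library is left out, a genotype with 2 libraries is assumed to vary like the others.

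A few log2 fold changes near 0, none of them called, turned sign when single libraries were left out. Over these fits NCED3 ranged from -0.21 to 0.43 in pnet2_abc over WT and KIN1 from -0.199 to 0.066 in pnet2_bc over WT. In pnet2_ac over WT, P5CS1 ranged from -0.020 to 0.35, RD29B from -0.55 to 0.093 and RAB18 from -0.31 to 0.056, and KIN1 stood at -0.031 without WT replicate 1 and pnet2_ac replicate 2 together. With library size alone the median of all genes moved to 0.20 in pnet2_abc over WT, 0.16 over pnet2_bc and 0.12 over pnet2_ac, and the share of calls that were higher moved from 46.7% to 61.0% in pnet2_bc, from 39.5% to 67.6% in pnet2_ac and from 50% to 38.2% in pnet2_bc over pnet2_ac. Depth bears most on COR15B and RD29B, the genes of the 10 with the lowest mean CPM. The largest standard errors were those of COR15A, however, at 0.59 to 0.65 over the 6 comparisons. They were 0.48 to 0.50 for COR15B and 0.44 to 0.45 for RD29B.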

Other observations

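A further ABA receptor gene and ICE2 differed sharply between libraries of one genotype; both were picked out after their values were seen. PYL1 had 1.53, 19.9 and 1.72 CPM in pnet2_abc, 26.7, 33.9 and 36.5 CPM in pnet2_bc, 1.11, 37.8 and 37.8 CPM in pnet2_ac, against 39.2, 34.2 and 34.9 CPM in WT. Replicate 1 of pnet2_ac, which held the least PYL1 of its group, was the library of that group with the highest level for 8 of the 10 protective genes. In pnet2_abc the order was otherwise. There replicate 2, with the most PYL1, was the highest for 6 of the 10, and replicate 1, with the least, for 0. ICE2 had 21.8, 21.4 and 48.0 CPM in pnet2_ac, against 50.2, 45.7 and 48.9 CPM in WT, so replicates 1 and 2 lay apart from replicate 3. The 3 libraries of pnet2_ac therefore did not share one level of PYL1 or of ICE2. No test was run on these splits, and their part in the spread of the 10 genes was not tested.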
